A study of Rattus norvegicus with 48 samples.

Results

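miR-10a and miR-10b are paralogous microRNAs (miRNAs) of the miR-10 family, and their levels are described here in the livers of rats given thioacetamide (TAA). Both genes sit inside clusters of Hox genes, the transcription factors that set position along the body axis, and each hairpin is cut into a 5p and a 3p strand. A mature miRNA guides the silencing complex to messenger RNAs that pair with its seed, bases 2 to 8. The miR-10 family has been studied as a regulator of Hox genes and of vessel growth, and miR-10b in particular in the spread of tumors. Its members were chosen by name, and all 4 mature strands (rno-miR-10a-5p, rno-miR-10a-3p, rno-miR-10b-5p and rno-miR-10b-3p, written without the species prefix below) were found among the 664 mature miRNAs with a read. Of these, 3 passed the filter on low values (at least 5 RPM, reads per 1000000 miRNA reads, in at least 3 of the 48 libraries) and were among the 301 miRNAs tested, while miR-10b-3p did not pass.

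The data were small RNA sequencing counts of whole liver from 48 male Sprague-Dawley rats, 1 library per rat. Rats received TAA, a compound that injures the liver, once daily at 4.5 mg/kg (low dose), 15 mg/kg (middle dose) or 45 mg/kg (high dose) for 3, 7, 14 or 28 days, and time-matched controls received the vehicle alone. Livers were taken 24 h after the last dose, and each of the 16 groups held 3 rats, numbered 1 to 48 as in the labels. Each of the 12 treated conditions was compared with its 3 time-matched controls to ask at which dose and time a member changed, so the 3 doses of a time point share their controls. Because the tissue was bulk liver, fewer cells of a type and less RNA per cell cannot be told apart.

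Library totals ran from 293331 to 14906217 miRNA reads. The shallowest, rat 1 of the 3-d controls, stood apart, since the next lowest held 4829217 reads. In rat 1 the 3 red blood cell markers (miR-451-5p, miR-486 and miR-144-3p) summed to 81063 normalized RPM, against 6723 and 4370 in the other 3-d controls. This sum was mostly miR-486, so it does not show an excess of all 3 markers. Over all libraries miR-486 averaged 5281 normalized RPM, against 258 for miR-451-5p and 60.8 for miR-144-3p. The hepatocyte markers of rat 1 (miR-122-5p, miR-192-5p and miR-194-5p) summed to 102809 against 227038 and 207337, and its endothelial markers (both arms of miR-126a) to 6827 against 19587 and 20809. Some results that rest on this library are given with and without it, and the others only with it. The other lists of markers covered stellate and smooth muscle cells, leukocytes and bile duct cells, and every listed marker had reads and passed the filter.

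The mature sequences are shown because the paralogs are close to each other, which bears on how their reads are told apart. They are given 5′ to 3′ from RefSeq (assembly GRCr8), with the seed in capitals.
miR-10a-5p: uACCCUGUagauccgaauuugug
miR-10b-5p: cCCUGUAGaaccgaauuugugu
miR-10a-3p: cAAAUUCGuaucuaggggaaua
miR-10b-3p: aCAGAUUCgauucuaggggaa
miR-10b with 2 more 5′ bases: uACCCUGUagaaccgaauuugugu

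Mir10a lies on the plus strand between Hoxb5 and Hoxb4, with its 5p arm at chr10:81779730-81779752 and its 3p arm at chr10:81779771-81779792. Mir10b lies on the plus strand within the span of Hoxd4, with its 5p arm at chr3:80035886-80035907 and its 3p arm at chr3:80035923-80035943. The table starts miR-10b-5p 2 bases later than miR-10a-5p, so the annotated seeds differ. When the 2 preceding bases of the hairpin are added (the longer form, chr3:80035884-80035907), the first 23 bases of both paralogs differ by 1 substitution, U12A, counted from 1 at the 5′ end of miR-10a-5p with the miR-10a base first, and the seed letters are the same. The 3p arms differ at 3 of 20 aligned bases. Which 5′ end was sequenced in these livers cannot be read from counts.

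miR-10a-5p was among the most abundant liver miRNAs, and miR-10b-5p was present at about a hundredth of it. miR-10a-5p averaged 46079 RPM, or 4.61% of all miRNA reads, and ranked 5 of 664 by mean, with ranks from 3 to 12 in single libraries. miR-10b-5p averaged 613 RPM and ranked 64. The passenger strand miR-10a-3p averaged 18.6 RPM over 4 to 274 reads per library. miR-10b-3p was close to undetected, with 0 to 5 reads per library, 65 reads in all and 0 reads in 19 libraries. The limit that 0 reads allow, taken as 3 counts, was 10.2 RPM in rat 1 and at most 0.621 RPM elsewhere.

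The paralogs also differed in how much rats of one group varied. The pooled within-group SD on the log2 scale was 0.23 for miR-10a-5p (264th of 301 from the most variable), 0.19 for miR-10a-3p (294th) and 0.80 for miR-10b-5p (9th), beside a median of 0.35. Among the 132 tested miRNAs with a mean of at least 100 RPM, miR-10b-5p had the highest within-group SD, and it still ranked 1st, with an SD of 0.78, when rat 1 was left out. No test was made of this rank.

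**Figure D1:**
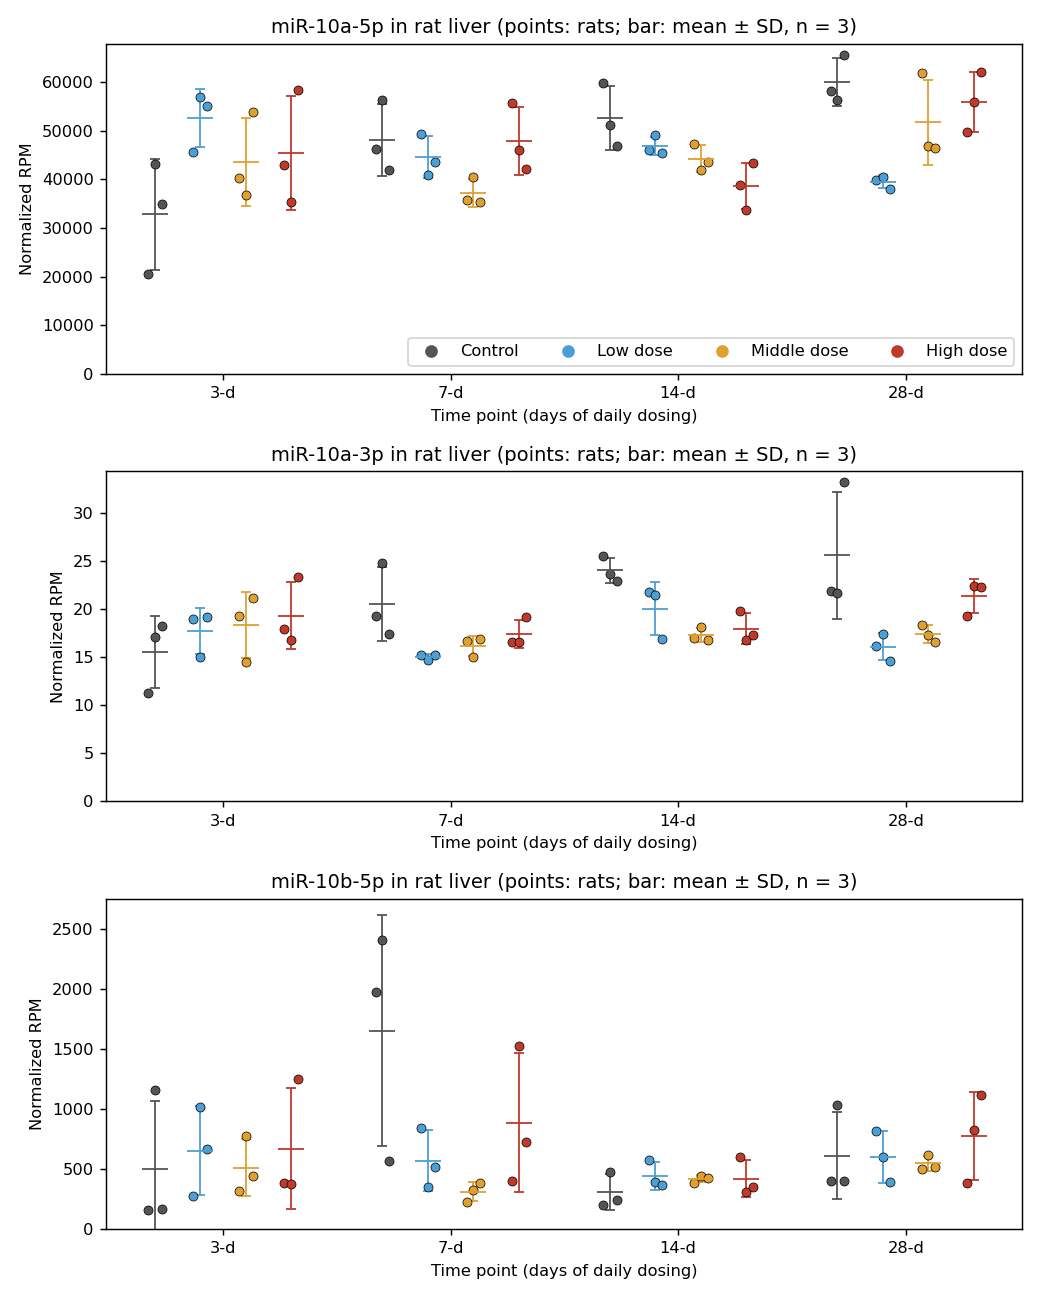
Normalized RPM (vertical axes, starting at 0) of miR-10a-5p, miR-10a-3p and miR-10b-5p in each of 48 rats, grouped by time point and colored by dose, with the mean ± SD of 3 rats (the SD bar of miR-10b-5p in the 3-d controls runs below the axis). miR-10a-5p stays between 20543 and 65638, while miR-10b-5p runs from 161 to 2410 and is highest in 2 of the 3 7-d controls.

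In controls, normalized miR-10a-5p (RPM after upper quartile normalization) was 20543, 43130 and 34871 in rats 1 to 3 at 3-d and 46277, 56267 and 41872 in rats 4 to 6 at 7-d. It was 59898, 51160 and 46908 in rats 13 to 15 at 14-d and 58255, 56371 and 65638 in rats 16 to 18 at 28-d. Group means thus stood at 32848 ± 11428, 48138 ± 7376, 52655 ± 6623 and 60088 ± 4898 (SD, n = 3) from 3-d to 28-d, and the 28-d controls lay above all rats of the 3-d and 7-d controls but overlapped the 14-d controls. A test for any difference among the 4 control groups gave an adjusted p of 0.184 (edgeR quasi-likelihood F-test, Benjamini-Hochberg), with 1.99% of the 301 miRNAs called. Without rat 1 the adjusted p was 0.0462, in a fit that called 18.9% of the miRNAs.

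With TAA, miR-10a-5p stood below its time-matched controls in 9 of 12 conditions, at every dose from 7-d on, and above them in the 3 conditions of 3-d. The same 9 signs were found under TMM and DESeq2 size factors, but under scaling by library size alone the high dose at 7-d and the middle dose at 28-d turned positive. Most of these differences were small, from -0.01 to -0.60 on the log2 scale. At an unadjusted p below 0.05 it was lower in 4 conditions (middle dose at 7-d, middle and high dose at 14-d, low dose at 28-d), with 17.6%, 16.3%, 12% and 10.6% of all tested miRNAs lower by that rule.

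The study's rule for a differentially expressed miRNA (DEM) was an unadjusted p below 0.05 and a fold change above 1.5. By it, DEMs of either direction made up 16.6%, 2.99% and 11.3% of tested miRNAs at the low, middle and high dose of 3-d, and 28.9%, 15.9% and 21.3% at 7-d. They made up 32.6%, 17.3% and 9.3% at 14-d and 12.3%, 32.9% and 15.3% at 28-d, and 231 of the 301 were a DEM in at least 1 condition. miR-10a-5p was a DEM in 1 condition, the low dose at 28-d. Its values there were 39995, 40563 and 38092 in rats 28 to 30, against 58255, 56371 and 65638 in the controls. All 3 treated rats lay below all 3 controls. In that comparison the groups did not overlap, in either direction, for 23.3% of tested miRNAs. The decrease was 34.2% (log2 fold change -0.60, SE 0.12; edgeR adjusted p = 0.0798), and 8.64% of miRNAs were DEMs lower in this condition. The median log2 fold change of all tested miRNAs was -0.06. The fold change lay close to the threshold, and the call was lost under TMM normalization (-0.48) and without control rat 18 (-0.54) or treated rat 30 (-0.58).

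In the same condition 2 of the 3 red blood cell markers were DEMs lower, with sums of 1904 to 4055 in treated rats against 2919 to 5220 in controls. So were 1 of 4 stellate and smooth muscle markers and 1 of 5 bile duct markers. The 2 endothelial markers were not called, with sums of 21631 to 22805 against 28159 to 32448. Their part in the decrease of miR-10a-5p was not tested.

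At 7-d the middle dose gave 35868, 40512 and 35341 in rats 34 to 36, against 46277, 56267 and 41872 in controls. The groups did not overlap (46.2% of tested miRNAs did not). miR-10a-5p was 22.6% lower (log2 fold change -0.37, SE 0.11), which had an adjusted p of 0.0343 in edgeR's quasi-likelihood test but stayed under the fold change of 1.5; 12.3% of miRNAs were lower at an adjusted p below 0.05. Without control rat 4 or 5 it missed that adjusted threshold (edgeR adjusted p = 0.0777 and 0.0868). With 1 treated rat left out the edgeR adjusted p rose as high as 0.103. The high dose at 14-d gave 38964, 33725 and 43308 in rats 7 to 9 against 59898, 51160 and 46908, also without overlap (24.6% of tested miRNAs), and a log2 fold change of -0.45 (SE 0.12; edgeR adjusted p = 0.112).

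At 3-d the low dose gave 45745, 56941 and 55073 in rats 43 to 45. These lay above all 3 controls, and in this comparison 39.5% of tested miRNAs had groups without overlap. The log2 fold change was 0.68 (SE 0.33; edgeR adjusted p = 0.291), which was no DEM. The median of all tested miRNAs in this comparison was 0.16, so the change relative to it was 0.51, and other scalings moved that median by -0.19 to -0.22. Without rat 1 the log2 fold change of miR-10a-5p was 0.43, and without control rat 2 it was 0.92 and met the DEM rule, as 11.6% of miRNAs did in the same direction. The middle and high doses at 3-d overlapped their controls, with log2 fold changes of 0.41 and 0.47.

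The passenger strand miR-10a-3p stood at 18.7 normalized RPM on average and had the same signs in the 12 conditions, though at 3-d the low dose turned negative under the other 3 scalings (-0.07 with TMM) and the middle dose under DESeq2 size factors. At the low dose of 28-d it was 16.2, 17.4 and 14.6 in rats 28 to 30, against 21.9, 21.6 and 33.2 in controls. This was its only DEM (log2 fold change -0.67, SE 0.24; edgeR adjusted p = 0.249), and it was lost without control rat 18 (-0.44) and without treated rat 28 or 30. At the middle dose of 28-d the value of -0.55 (SE 0.20) lay just inside the fold change limit, and TMM normalization took it past the limit (-0.60). Relative to the median of all tested miRNAs, miR-10a-3p was below in all 12 conditions, and in 11 under DESeq2 size factors.

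**Figure D2:**
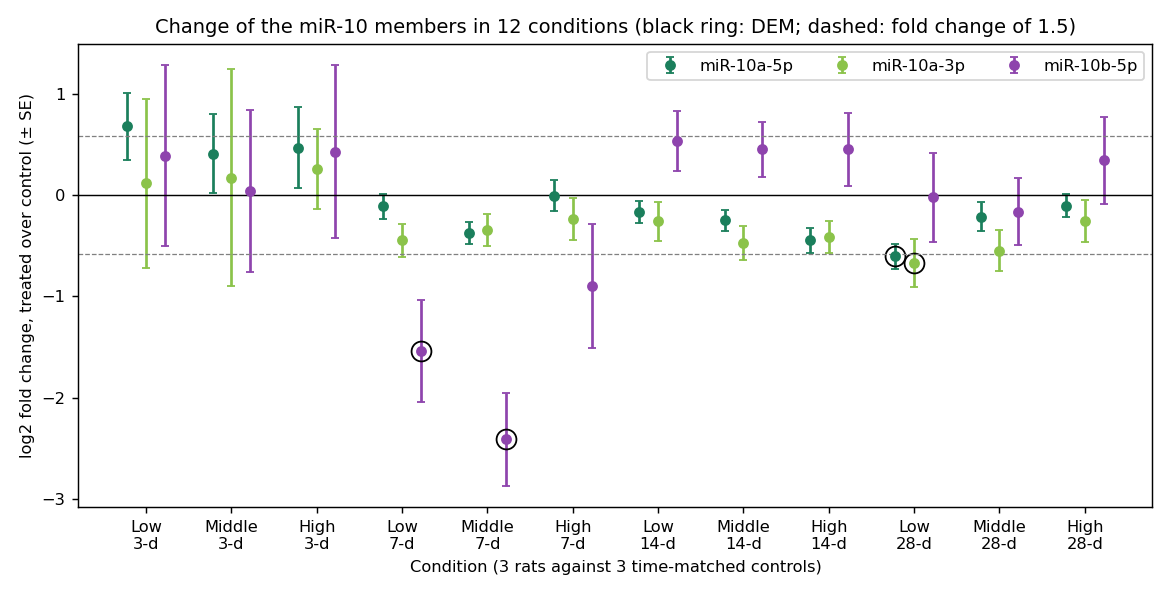
log2 fold change ± SE of the 3 tested members in the 12 conditions, each 3 treated rats against 3 time-matched controls, with dashed lines at a fold change of 1.5 and black rings around DEMs. The miR-10a strands lie within 0.70 of 0, while miR-10b-5p reaches -2.41 at the middle dose of 7-d.

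The effect of TAA on miR-10a-5p differed between 28-d and 3-d at the low dose. The difference of the log2 fold changes was -1.28 (SE 0.26; adjusted p = 0.00490 in edgeR's fit of all 48 libraries), where 5.32% of miRNAs were called. It held without rat 1, and over all single libraries left out it lay between -1.53 and -1.03. This was the only call for miR-10a-5p among 24 such contrasts of doses or time points. The fit shares 1 estimate of the spread over all 16 groups. The 3-d controls varied more (SD 11428 normalized RPM) than the low-dose rats at 28-d (SD 1294). In this fit the low-dose effect at 3-d had an SE of 0.19, against 0.33 when that comparison was fitted alone. The SE of 0.26 thus reflects the pooled spread, not the wider spread at 3-d. No contrast was called for miR-10a-3p or miR-10b-5p with all libraries in. For miR-10a-3p the same low-dose contrast of 28-d and 3-d lay just past the threshold (-0.75, SE 0.25; edgeR adjusted p = 0.0506). It was called in 6 of the 48 fits that left out 1 library. For miR-10b-5p 1 control decided the outcome: without control rat 2 at 3-d, the effects at 7-d and 3-d differed at all 3 doses (-3.53, -4.05 and -2.93; edgeR adjusted p = 0.00460, 0.00260 and 0.0123). Without that rat 13%, 7.97% and 18.9% of miRNAs were called in these 3 contrasts, against 1.99%, 0% and 6.64% with all libraries in. The fit without rat 2 keeps rat 1, the shallowest library, among the 3-d controls. In the 47 other fits that left out 1 library, no contrast was called for miR-10b-5p.

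For miR-10b-5p the control levels themselves were uneven. Normalized RPM was 161, 1156 and 167 in rats 1 to 3 at 3-d, and 1974, 2410 and 566 in rats 4 to 6 at 7-d. It was 201, 475 and 238 in rats 13 to 15 at 14-d, and 397, 1027 and 402 in rats 16 to 18 at 28-d. In each control group 1 or 2 rats stood far above the others, and rats 4 and 5 held the highest values of all 48 libraries. In rats 4, 5 and 6 hepatocyte marker sums were 212029, 241547 and 227846, and endothelial sums were 19651, 22545 and 21220. Red blood cell sums were 5399 and 6168 in rats 4 and 5 and lower, at 3772, in rat 6; their part in the level of miR-10b-5p was not tested. The control groups gave an adjusted p of 0.197 over time (edgeR F-test). Without rat 2 it was 0.0239 by the same edgeR test, in a fit that called 9.3% of the miRNAs.

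miR-10b-5p was a DEM in 2 of 12 conditions, lower at the low and middle doses of 7-d. At the low dose it was 843, 348 and 512 in rats 46 to 48, so rat 46 lay above the lowest control (566) and the groups overlapped. At the middle dose it was 221, 327 and 380 in rats 34 to 36, all below the 3 controls. At the high dose it was 401, 1525 and 726 in rats 25 to 27, overlapping the controls.

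The log2 fold changes were -1.54 at the low dose (SE 0.50; edgeR adjusted p = 0.0374), -2.41 at the middle dose (SE 0.46; edgeR adjusted p = 0.00536) and -0.90 at the high dose (SE 0.61; edgeR adjusted p = 0.415). As fold changes the first 2 were 2.91-fold and 5.33-fold lower. DEMs lower made up 10.6%, 3.99% and 3.32% of tested miRNAs at these 3 doses. The 3 values share the same controls, and the effects of the doses did not differ past the threshold: high minus middle was 1.51 (SE 0.62; edgeR adjusted p = 0.222) and middle minus low was -0.87 (SE 0.61; adjusted p = 0.302).

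These calls depended on the 7-d controls. Without rat 4 or rat 5 the low dose was no longer a DEM (-1.39 and -1.16, with an unadjusted p above 0.05; edgeR adjusted p = 0.117 and 0.151), while the middle dose stayed one with each of the 6 libraries left out, between -2.82 and -2.04. Without control rat 6, or without treated rat 26, the high dose became a DEM (-1.31 and -1.55), as it did with no filter on low values (-1.15). DEMs lower made up 4.65%, 7.97% and 5.73% of tested miRNAs in these 3 fits. Against all 12 controls of the 4 time points together, miR-10b-5p was a DEM in 0 conditions, and the low and middle doses at 7-d gave -0.43 and -1.31 (edgeR adjusted p = 0.718 and 0.438).

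Markers of other cells moved in these conditions too. At the middle dose of 7-d, 2 of 3 red blood cell markers were DEMs lower, with sums of 1636 to 1896 against 3772 to 6168 in controls. No marker of the other lists was a DEM there, and DEMs lower made up 3.99% of tested miRNAs. Red blood cell markers were also DEMs lower where miR-10b-5p was no DEM. These were 2 of 3 at the high dose of 7-d, and 3 of 3 and 2 of 3 at the middle dose of 14-d and 28-d. At the low dose of 7-d, 2 of 4 leukocyte markers (sums of 1845 to 2829 against 2970 to 3477) and 2 of 5 bile duct markers (395 to 492 against 1007 to 1086) were DEMs lower. So were 1 of 4 stellate and smooth muscle markers and 1 of 3 red blood cell markers, and 1 of 3 hepatocyte markers was a DEM higher. In that condition 10.6% of tested miRNAs were DEMs lower and 18.3% were DEMs higher. The part of these markers in the change of miR-10b-5p was not tested.

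**Figure D3:**
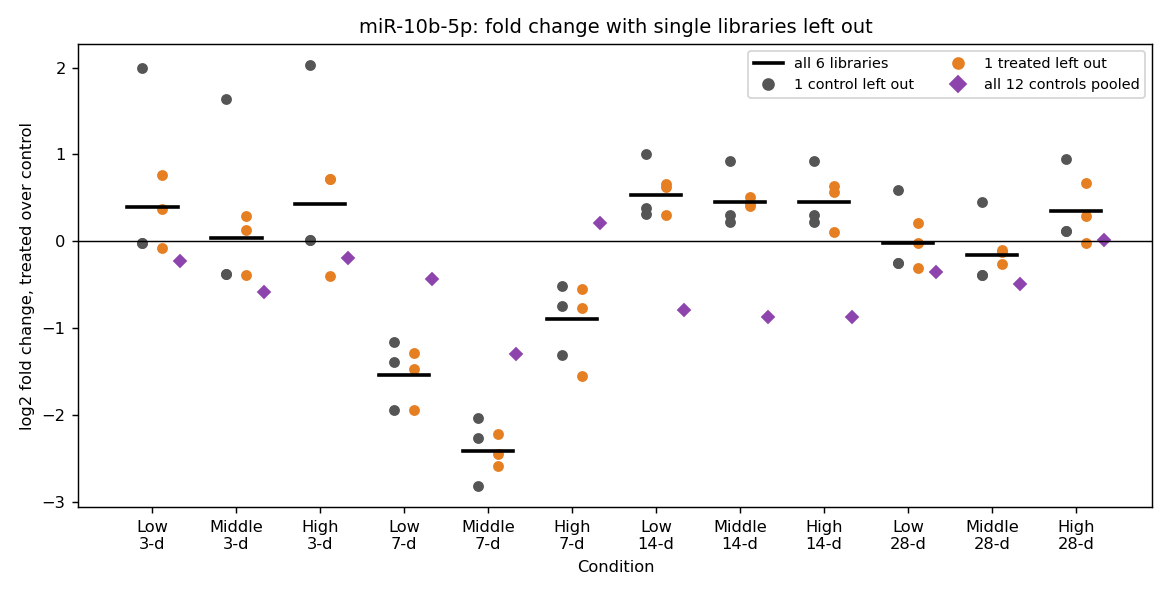
log2 fold change of miR-10b-5p in the 12 conditions with all 6 libraries (black bar), with 1 control (gray) or 1 treated library (orange) left out, and against all 12 controls pooled (purple). At 3-d one gray point per dose rises to between 1.64 and 2.03, and at 7-d the purple points lie above the bars.

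At the other time points miR-10b-5p met the DEM rule in no condition with all libraries in. At 3-d it was 269, 1017 and 669 at the low dose, 316, 770 and 444 at the middle dose, and 379, 375 and 1250 at the high dose. Apart from the highest of these (1250), every treated rat lay between the 2 low controls and the high one, rat 2. The log2 fold changes were 0.39, 0.04 and 0.43 (SE 0.80 to 0.89), and the value of the middle dose turned negative (-0.02) under TMM normalization. Without rat 2 they were 1.99, 1.64 and 2.03, and all 3 were DEMs higher (edgeR adjusted p = 0.209, 0.471 and 0.181). DEMs higher made up 11.6%, 0.997% and 3.99% of tested miRNAs in these 3 fits. The fits without rat 2 keep the shallow rat 1, which held 57 reads of miR-10b-5p. Without rat 1 the log2 fold changes were -0.02, -0.37 and 0.01, and without rat 3 they were -0.03, -0.38 and 0.01. None of these met the DEM rule.

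At 14-d miR-10b-5p was 573, 387 and 363 at the low dose, 384, 441 and 423 at the middle dose, and 594, 304 and 352 at the high dose. The log2 fold changes were 0.53, 0.45 and 0.45 (SE 0.27 to 0.36). Without control rat 14, which held 475, they were 1.01, 0.92 and 0.93, DEMs higher at each dose (edgeR adjusted p = 0.00681, 0.00267 and 0.174). In those fits 22.3%, 11.6% and 5.32% of tested miRNAs were DEMs higher. With all libraries in, every dose overlapped its controls.

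At 28-d it was 816, 594 and 388 at the low dose, 500, 619 and 514 at the middle dose, and 381, 824 and 1113 at the high dose. The log2 fold changes were -0.02, -0.16 and 0.34 (SE 0.33 to 0.44). The first turned positive (0.07) under TMM normalization and the second (0.09) under library size alone, and the last became a DEM (0.95) without control rat 17, in a fit where 12.3% of tested miRNAs were DEMs higher. Groups at 28-d overlapped at every dose.

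Ordered by mean over the 16 groups, miR-10b-5p ran from 304 ± 148 in the 14-d controls to 1650 ± 964 in the 7-d controls (SD, n = 3). All neighbors in this order overlapped except the middle dose at 7-d (221 to 380) and the middle dose at 14-d (384 to 441). miR-10a-5p ran from 32848 in the 3-d controls to 60088 in the 28-d controls, and all neighbors overlapped. So for both paralogs the lowest and the highest group were controls, the lowest for miR-10a-5p being the group that holds rat 1.

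Because both paralogs were counted in the same library, their ratio does not depend on scaling. Reads of miR-10b-5p came to between 0.335% and 4.28% of those of miR-10a-5p, with a median of 1.04%, a 12.8-fold range. The lowest ratio was in control rat 13 at 14-d. The highest were 4.27% and 4.28% in control rats 4 and 5 at 7-d, followed by 3.32% in rat 26 of the high dose at 7-d. If a fixed share of miR-10a-5p reads had been counted as miR-10b-5p, that share could be no larger than the lowest ratio.

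Over the 4 time points, the mean log2 ratio in treated minus control rats was 0.07 at the low, -0.17 at the middle and 0.22 at the high dose (SE over time points 0.47, 0.58 and 0.38; exact two-sided permutation test within time points, p = 0.852, 0.638 and 0.547; 12 against 12 rats). At 7-d alone the differences were -1.29, -1.84 and -0.86, and at the 3-d, 14-d and 28-d time points they lay between 0.11 and 0.94. With 3 rats against 3, a permutation within 1 time point cannot go below p = 0.1.

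**Figure D4:**
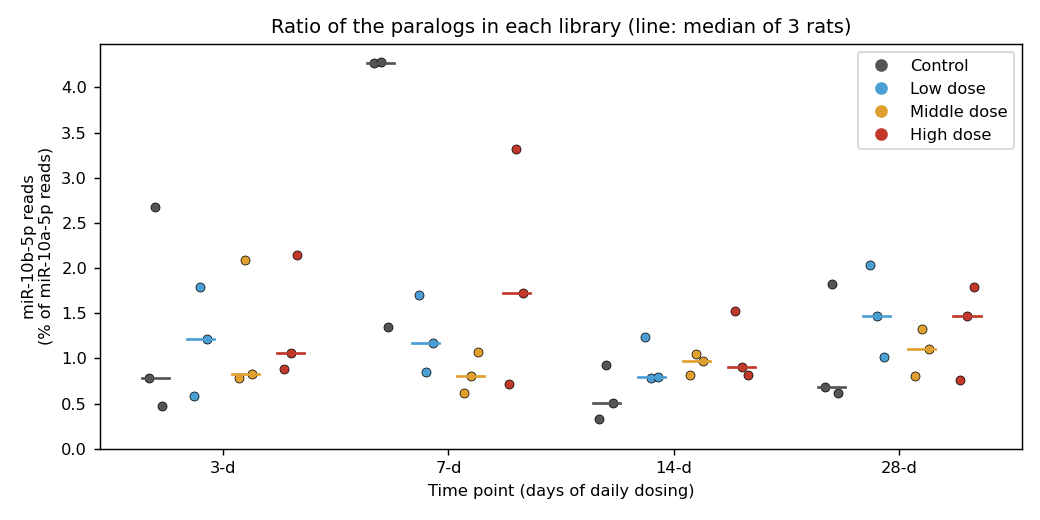
Reads of miR-10b-5p as a percentage of miR-10a-5p reads in each library (vertical axis from 0), by time point and dose, with a line at the median of 3 rats. Most libraries lie near the overall median of 1.04%, and the 7-d controls hold the 2 highest points at 4.27% and 4.28%.

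The ratio of the strands of miR-10a was steadier. miR-10a-5p exceeded miR-10a-3p by 1822-fold to 3797-fold, with a median of 2498. The lowest value was in rat 1, which held 4 reads of miR-10a-3p. The log2 ratio was higher with TAA by 0.26 at the low dose (exact permutation p = 0.00614), 0.19 at the middle dose (p = 0.0241) and 0.14 at the high dose (p = 0.101). After adjustment over the 9 ratio tests these were 0.0552, 0.108 and 0.304 (exact permutation, Benjamini-Hochberg), so none passed. From 3-d, which includes rat 1, to 28-d, the differences at the low dose were 0.58, 0.33, 0.11 and 0.04. They were 0.26, -0.03, 0.23 and 0.30 at the middle dose and 0.23, 0.22, -0.03 and 0.13 at the high dose. The ratio of the strands of miR-10b rests on 0 to 5 reads of the 3p arm, and its differences of 0.25, -0.15 and -0.29 had exact permutation p of 0.702, 0.802 and 0.599.

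The nearest relatives of the miR-10 family by sequence are the miR-99/100 and miR-125 groups, shown here because miR-99b and miR-100 differ from miR-10a within the seed.
miR-10a-5p: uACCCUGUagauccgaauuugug
miR-100-5p: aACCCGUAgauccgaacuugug
miR-99b-5p: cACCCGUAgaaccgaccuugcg
miR-125a-5p: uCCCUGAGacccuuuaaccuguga
miR-125b-5p: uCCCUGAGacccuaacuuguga

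These sequences are from RefSeq too (miR-99b-5p at chr1:67350070-67350091, miR-100-5p at chr8:50798307-50798328, miR-125a-5p at chr1:67350689-67350712 and miR-125b-5p at chr11:29732588-29732609, all on the plus strand). miR-99b-5p and miR-100-5p share one seed and both miR-125 members share another. No tested relative holds the seed of miR-10a-5p.

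At each time point of the middle dose from 7-d on, 4 of the 5 relatives were DEMs higher (miR-99a-5p, miR-99b-5p, miR-100-5p and miR-125b-5p), beside 12%, 12% and 20.9% of all tested miRNAs. The median log2 fold change of the 5 was 1.37, 1.33 and 1.39, against -0.02, 0.01 and 0.02 over all tested miRNAs. miR-100-5p changed most, by 2.85, 2.40 and 2.23 (SE 0.17 to 0.19; edgeR adjusted p = 2.17e-05, 3.64e-06 and 1.70e-05). In those conditions miR-10a-5p was at -0.37, -0.25 and -0.22 and miR-10b-5p at -2.41, 0.45 and -0.16.

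In the other 9 conditions 0 relatives were DEMs higher, and 4 calls were lower: miR-125a-5p at the low dose of 3-d (2.82-fold lower), 7-d (log2 fold change -0.86) and 14-d (-0.83), and miR-125b-5p at the high dose of 28-d (-0.76). DEMs lower made up 6.64%, 10.6%, 9.63% and 2.33% of tested miRNAs in these 4 conditions. The ratio of the 5 relatives, summed, to miR-10a-5p was tested after these values were seen. Over the 4 time points it was 1.69-fold higher at the middle dose (log2 0.76; exact permutation p = 0.0233, adjusted over 3 doses 0.0699), with -0.90 at 3-d and 1.43, 1.26 and 1.24 at the later time points. At the low and high doses it was -0.32 and -0.34 (exact permutation p = 0.353 and 0.269). With 1 library left out, the middle-dose log2 value lay between 0.64 and 0.98, with an exact permutation p of up to 0.0835. The 3-d value includes rat 1, whose relatives summed to 21256 against 6869 and 5456 in the other 3-d controls.

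**Figure D5:**
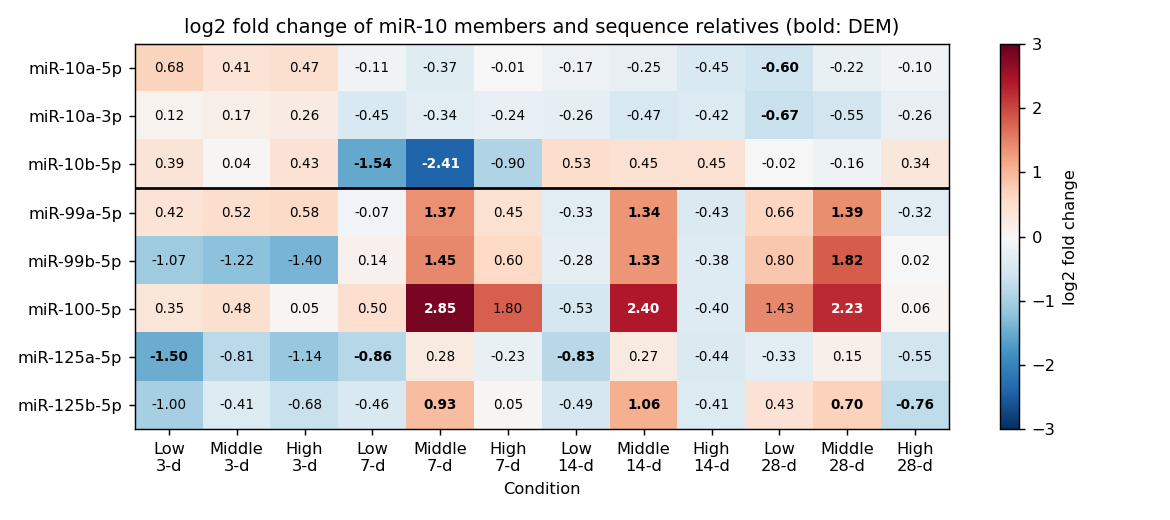
log2 fold change (color and number) of the 3 tested miR-10 members, above the line, and 5 sequence relatives in the 12 conditions, with DEMs in bold. The relatives are red at the middle dose from 7-d on, up to 2.85 for miR-100-5p, where miR-10a-5p is between -0.37 and -0.22.

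Of 4 other miRNAs encoded in Hox clusters (miR-196a-5p, miR-196b-5p, miR-196c-5p and miR-615), 3 had a read and 0 passed the filter. Their summed level was at most 2.25 normalized RPM in any library. The miR-10 members were thus the Hox-cluster miRNAs of the list that could be tested.

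Across the 48 libraries, which share depth and composition, the miRNAs most like miR-10a-5p by Pearson correlation of log2 normalized RPM were miR-24-1-5p (0.72), miR-126a-5p (0.71) and miR-30e-5p (0.70), and the least like it were miR-92a-3p (-0.62), miR-671 (-0.61) and miR-25-5p (-0.58). Without rat 1 these fell to between 0.52 and 0.54 and to between -0.37 and -0.32. The strands miR-10a-5p and miR-10a-3p correlated at 0.69, and at 0.62 without rat 1. For miR-10b-5p the highest were miR-24-1-5p (0.46), miR-10a-5p (0.42) and miR-802-5p (0.36), so its own paralog ranked 2nd, at a low value. The lowest were miR-25-5p (-0.41), miR-423-5p (-0.36) and miR-27a-5p (-0.35). Without rat 1 the highest were 0.42, 0.33 and 0.25 and the lowest -0.30, -0.24 and -0.26, in the same order of names. Of the miRNAs named here, miR-24-1-5p, miR-25-5p and miR-27a-5p averaged only 4.04, 4.73 and 2.66 normalized RPM.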

How the data were processed

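Small RNA libraries (TruSeq) of 15 mg liver were sequenced on an Illumina instrument. After adaptor removal the authors retained inserts between 18 and 25 bases, checked them against the rat genome (rn5) and FastQC reports, and counted them against miRBase 21 with miRDeep2; the deposited values are raw counts per mature miRNA and precursor. The mismatch setting of the counting is not given in the sources used here. Identical counts of a mature miRNA from several precursors were taken once. Counts were tested with the quasi-likelihood test of edgeR 4.0.16 (R 4.3.3) after upper quartile normalization, with Benjamini-Hochberg adjustment over 301 miRNAs; DEM denotes an unadjusted p below 0.05 with a fold change above 1.5. Dose and time contrasts used one fit of 48 libraries. Ratios used counts plus 0.5 and exact permutation within time points (160000 arrangements, smallest possible p 1.25e-05). Correlations used log2 of normalized RPM plus 1. Alternatives were TMM, DESeq2 1.42.0 size factors and Wald test, library size alone, other filters, edgeR's exact test, pooled controls, a single fit and each library left out. Tested on simulated data for 3 against 3 libraries at 7-d, 79 of 81 changed miRNAs and 7 of 179 unchanged ones were called. For a simulated difference of effects between 28-d and 3-d, 61 of 85 changed miRNAs and 6 of 206 unchanged ones were called. Among those changed by 1 log2 unit, 18 of 41 were called. All simulated miRNAs had the same dispersion, so these rates do not cover a spread as wide as that of miR-10b-5p. Intervals and limits cover counting error only. No pair of libraries held identical counts. RefSeq sequences and neighboring genes are on GRCr8, not rn5. miRNAs to name were the members, the listed relatives and markers, and the 3 most and least alike by correlation; members and lists were chosen with earlier results of these data known. Each library was one rat, so p-values measure the spread between rats.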

Additional observations from a re-analysis of the deposited data

Results flagged for a closer look

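The effect of the low dose on miR-10a-5p differed between time points: the log2 fold change at 28-d minus that at 3-d was -1.28 (SE 0.26; edgeR adjusted p = 0.00490), from a value of 0.68 at 3-d to -0.60 at 28-d. It was flagged because the difference itself passed its test, the only one of 24 contrasts to do so for this strand, where 5.32% of tested miRNAs passed. That test used 1 spread estimate for all groups, and its SE lies below the 0.33 of the 3-d low-dose effect fitted alone. The controls stood at 32848 normalized RPM at 3-d and 60088 at 28-d, and the low-dose rats at 52586 and 39550. Rat 1 of the 3-d controls, the shallowest library with 81063 normalized RPM of red blood cell markers (mostly miR-486), enters this contrast; its part was measured by leaving it out, which gave -1.03 with the call kept, and TMM normalization gave -0.90, also called.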

How the results depend on the processing

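With all libraries in, DEM calls were 1 condition for miR-10a-5p, 1 for miR-10a-3p and 2 for miR-10b-5p. miR-10a-5p had 0 under TMM, DESeq2 size factors, library size alone, no filter, the DESeq2 Wald test, pooled controls and adjusted p, where its fold change fell below 1.5 or its adjusted p rose above 0.05, and 2 in the single fit of 48 libraries. miR-10a-3p had 0 under library size alone, pooled controls and adjusted p, and miR-10b-5p 0 against pooled controls. The cause of these moves was not tested beyond that. Leaving out single libraries gave 0 to 2, 0 to 2 and 1 to 5 conditions for the 3 strands, and 1 to 6, 0 to 1 and 0 to 3 called contrasts of effects in place of 1, 0 and 0; the 5 conditions of miR-10b-5p came without control rat 2 or 14, and the 6 and 3 contrasts without rat 2. Adjusted p for controls over time ranged from 0.0462 to 0.337 for miR-10a-5p and from 0.0239 to 0.442 for miR-10b-5p. The log2 difference in the miR-10a strand ratio ranged from 0.15 to 0.23 at the middle dose and from 0.10 to 0.18 at the high dose, and was 0.17 at the middle dose without the 3-d time point (exact permutation p = 0.0548). No called value changed sign. No paired analysis was possible because each rat has its own running number and groups share none. With 3 rats a group, the spread of miR-10b-5p limits its changes to wide errors, and the counts of miR-10b-3p are too few to compare.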
